A study of Apis mellifera with 6 samples.

Results

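Among the transcripts of newly-eclosed honey bee brains, a group stepped down from queen to worker and again from worker to drone. It was defined on TPM (a level scaled to transcript length and to the same total in every library) for single reference transcripts, called targets here and given by their deposited numbers. A member had at least 10 TPM in both queen libraries, its lower queen value was at least 1.5 times and under 5 times its higher worker value, and its lower worker value was at least 1.5 times its higher drone value. The ecdysone receptor gene Ecr and the troponin genes (symbols beginning Tpn) were left out, which removed 5 of the 117 targets that met the ratios, 1 of Ecr and 4 of troponin genes. The 112 remaining targets belonged to 100 genes, out of 28409 targets in the whole series, of which 28200 were paired with 12279 genes. They were 1.78% of the 6306 targets with at least 10 TPM in both queen libraries. Because all 6 libraries chose the members, their differences are described and not tested.

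The libraries came from central brains, with the optic lobes removed, of queens (diploid females), workers (diploid females, whose hypopharyngeal glands were also taken off) and drones (haploid males), all offspring of 1 mother queen and collected soon after they left their cells. There were 2 replicate libraries for each of the 3 phenotypes, each from a pool of brains, so that neither a single bee nor a single cell type can be told apart, and fewer cells of a type cannot be told apart from less RNA per cell. Between 7685185 (worker replicate 2) and 44373783 (queen replicate 1) reads were assigned per library.

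Queens and workers develop from the same kind of fertilised egg and are set apart by larval food, whereas drones come from unfertilised eggs. Juvenile hormone and ecdysteroids carry much of the difference between the 2 female castes through development, and both also act on the insect brain. Signalling in that brain rests on acetylcholine as the main fast excitatory transmitter, on biogenic amines such as serotonin, and on neuropeptides that are released more diffusely and act through G protein-coupled receptors and cyclic AMP.

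Nearly all reads were assigned to targets on 1 strand. Targets annotated on the minus strand were 50.7% of all targets with coordinates but in each library held 2.80% to 4.18% of the counts on such targets. Genes that every cell uses followed the same split. The ribosomal protein gene RpL35, on the plus strand, averaged 667 TPM, while RpLP1 and RpL32, on the minus strand, averaged 4.83 and 0.307 TPM in the mean of the 6 libraries. Values on minus-strand targets are therefore not read here as the level of the gene. Of the 6306 targets at 10 TPM in both queen libraries 5963 were on the plus strand and 325 on the minus strand, and of the 112 members 101 (in 89 genes) were on the plus strand and 11 on the minus strand. The cause was not tested.

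The scale mattered as well. TPM ran higher in queen than in worker libraries and higher in worker than in drone libraries for most transcripts. Over the 4901 targets with at least 10 TPM in every library, the median log2 ratio of mean TPM was 0.11 for queen over worker, 0.28 for worker over drone and 0.39 for queen over drone, against -0.05, -0.00 and -0.06 for CPM (counts scaled to library size) on edgeR's TMM scale, a trimmed mean of ratios that assumes that most genes do not differ. The members' median log2 ratios on TPM were 1.00, 1.25 and 2.42, which lay 0.89, 0.97 and 2.03 above those of all transcripts. On the TMM scale they were 0.84, 0.96 and 1.98, at a distance of 0.89, 0.97 and 2.04 from all transcripts. A change of scale shifts most transcripts of a library by a like factor, so this distance could hardly move. The rule sets it, and nothing is read from it about the members. The factor was not the same for all members. The ratio of the lower queen to the higher worker value went from 2.06 to 1.85 for AChE-2 (12849 bases). For LOC113218652 (306 bases) it went from 1.88 to 1.34. In the plot of median differences on the 2 scales, the drop from TPM to the TMM scale is of like size for the members and for all transcripts.

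**Figure D1:**
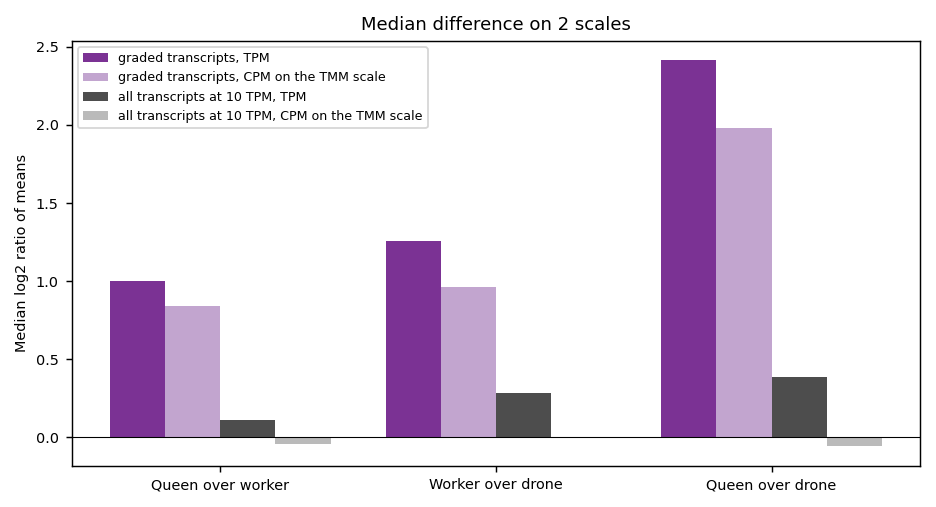
Median log2 ratio of group means (vertical axis) for the 3 comparisons, for the graded transcripts (purple) and for all 4901 transcripts with at least 10 TPM in every library (grey), on TPM (dark) and on CPM on the TMM scale (light). The graded transcripts sit 0.89, 0.97 and 2.03 above all transcripts on TPM, a distance that the rule sets.

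On the TMM scale nearly all members kept the order, but fewer kept the size of the steps. A step of at least 1.5 on TPM left little room for the change of scale to reverse the order. That the members kept it is therefore no support for them. On TPM, 111 of the 112 members had both queen libraries above both worker libraries and both worker libraries above both drone libraries, the exception being a 5-HT1 transcript that was 0 in worker replicate 1 and in both drone libraries. The rule requires this order, and 23.0% of all targets at 10 TPM in both queen libraries had it. That background depends on the scale: of the 6354 targets with a mean of at least 10 TPM that entered the count fits, 21.2% had the order on TPM and 7.78% on the TMM scale. On the TMM scale 110 of the 112 kept it, but only 70 kept the step of 1.5 between queen and worker, 66 the step between worker and drone, and 40 both. With DESeq2's size factors 111 kept the order and 40 kept both steps.

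The excess of this order over the reverse order also depended on the scale. Among the same 6354 targets 112 had both steps of at least 1.5 in the order queen, worker, drone on TPM, a set counted here without the upper limit and with Ecr and the troponins, and so not the same as the members. The reverse order, drone over worker over queen, had 66. On the TMM scale the numbers were 45 and 92, so that the reverse order was then the more frequent of the pair. Each of the other 4 orders had between 14 and 31 targets on TPM and between 11 and 48 on the TMM scale.

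**Figure D2:**
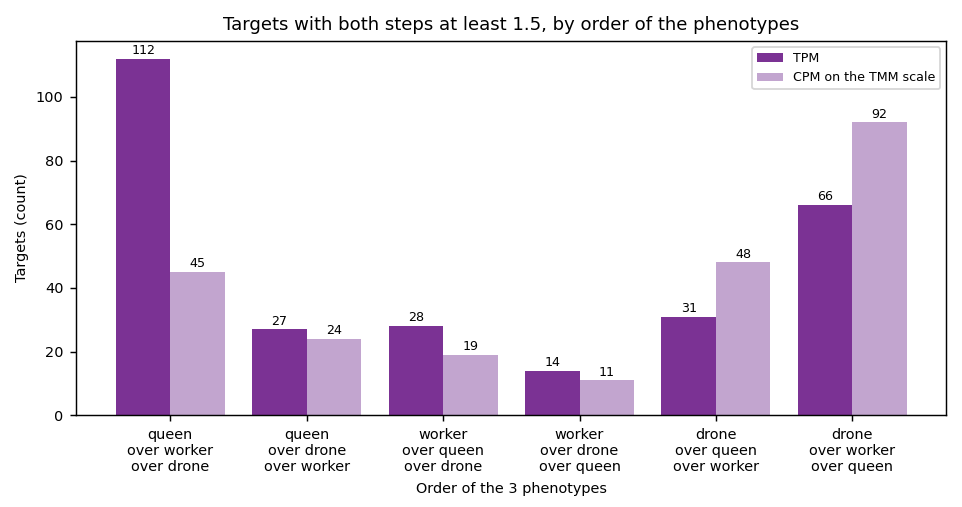
Number of targets (vertical axis) for which both steps between neighbouring phenotypes were at least 1.5, for each of the 6 possible orders of queen, worker and drone, on TPM (dark) and on CPM on the TMM scale (light), over 6354 targets. Queen over worker over drone leads on TPM with 112 against 66 for the reverse order, and trails on the TMM scale with 45 against 92.

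Levels within the group spanned a wide range. Mean TPM had a median of 46.2 in queens (from 10.5 to 2209.9), 23.8 in workers (from 2.02 to 702) and 7.02 in drones (from 0 to 437). For all 6306 targets at 10 TPM in both queen libraries the medians were 41.0, 36.5 and 29.7 TPM, a difference that the rule fixes. The median ratio of the higher to the lower replicate was 1.05 in queens, 1.12 in workers (111 members with a value) and 1.11 in drones (105 members). Over all targets at 10 TPM in both queen libraries it was 1.08, 1.15 and 1.12, and the rule favours close replicates. Larger gaps than 1.5 between replicates occurred for 1 member in queens, 12 in workers and 6 in drones. Among all those targets they occurred for 297 of 6306 in queens, 908 of 6264 in workers and 651 of 6271 in drones.

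The sizes of the steps are shaped by the rule, which sets an upper limit on the ratio of queen to worker and none on that of worker to drone. Without that limit 134 targets would have met the rule. Among the members the ratio of means had a median of 2.00 for queen over worker and 2.39 for worker over drone, and the second was the larger in 75 of the 110 members with a drone value above 0. Relative to all transcripts the medians of the steps were close, 0.89 and 0.97 on the log2 scale as given above. For 18 members the worker mean was more than 5 times the drone mean, for 27 the queen mean was more than 10 times the drone mean, and for 21 both steps were under 2. The plot of step sizes shows a dense cloud near steps of 2 and a thin tail that runs to the right, towards transcripts nearly missing in drones, the side on which the rule has no upper limit.

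**Figure D3:**
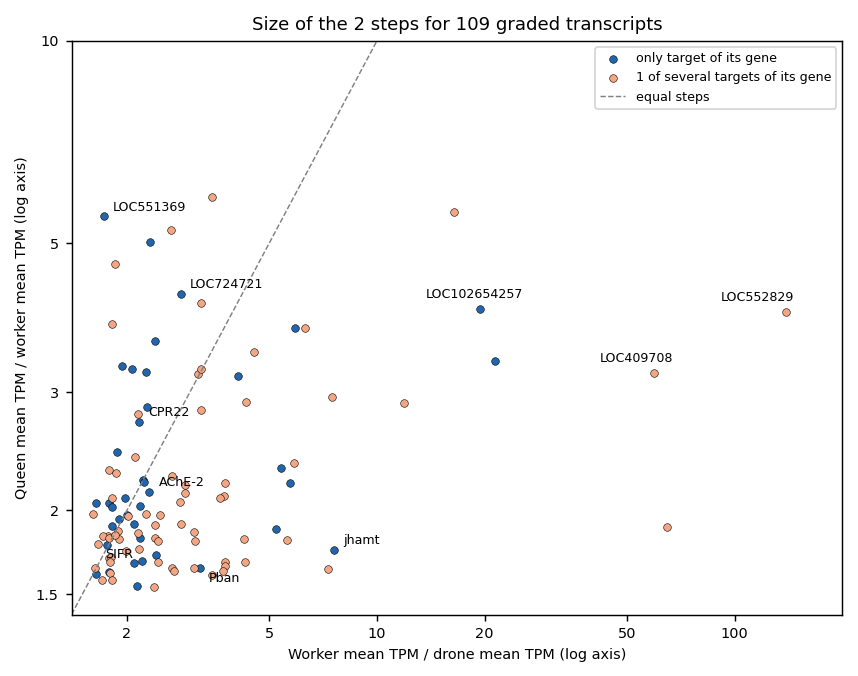
Ratio of queen to worker mean TPM (vertical, log axis) against ratio of worker to drone mean TPM (horizontal, log axis) for 109 members, coloured by whether the target is the only one of its gene, with the line of equal steps dashed. The 3 members with drone values at or next to 0 in both libraries are not drawn. LOC552829, LOC409708 and LOC102654257 lie far to the right and LOC551369 at the top left.

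Members near the limits differed little from transcripts left out. Just inside the limit for queen over worker lay LOC724439, LOC409933 and LOC725619, with ratios of 1.504, 1.505 and 1.513. Just outside lay LOC726130, LOC102655352 and target 17975 of LOC100578529, with 1.4998, 1.484 and 1.484. Another target of LOC100578529, 17974, was a member, with a ratio of 1.554. For worker over drone the members LOC413125, LOC551369 and LOC725619 had 1.502, 1.513 and 1.521, and LOC725260, LOC408393 and LOC408297, outside, had 1.492, 1.489 and 1.486. At the upper limit LOC551369 was just inside with a ratio of the lower queen to the higher worker value of 4.96, followed by LOC408972 with 4.59 and LOC410211 with 4.21, while LOC113218863, LOC411285 and LOC551123 had 5.09, 5.66 and 5.79 and were left out.

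Few members have a name. Only 8 of the 100 genes carry a symbol other than a locus number in RefSeq, and a ninth, LOC724216, is listed under the synonym jhamt. These 9 fell into hormone synthesis, neuropeptide and amine signalling, cholinergic transmission, cyclic AMP signalling and cuticle.

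The juvenile hormone gene had a wide gap between the female castes and drones. jhamt encodes juvenile hormone acid methyltransferase, which acts late in juvenile hormone synthesis and is best known from the corpora allata, paired glands that lie behind the insect brain. It had 233 and 213 TPM in queens, 137 and 118 TPM in workers and 16.0 and 17.7 TPM in drones. The groups did not overlap, as the rule requires, and the drone values lay far below both female castes. The means were 223 ± 14.7 TPM in queens, 128 ± 13.8 TPM in workers and 16.9 ± 1.16 TPM in drones (SD, n = 2 each), a ratio of 1.75 for queen over worker and of 7.57 for worker over drone. On the TMM scale the lower queen value was 1.34 times the higher worker value, under the limit of 1.5, and the lower worker value 5.75 times the higher drone value. These ratios of the lower library of one phenotype to the higher library of the next, which the rule reads, are called step ratios from here on. The gene has a single target of 1221 bases with 5 exons at chr4:11486247-11487860 of Amel_HAv3.1.

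Neuropeptide and amine signalling was represented by a peptide precursor and 2 receptors. Pban encodes the precursor of pheromone biosynthesis-activating neuropeptide and related pyrokinins, first known in moths for the control of sex pheromone synthesis. It was present at a low level, with 38.4 and 34.7 TPM in queens, 21.6 and 22.9 TPM in workers and 5.82 and 8.09 TPM in drones. Queens were 1.64 times workers and workers 3.20 times drones by the means, and the drone values rested on 91 and 34 estimated counts. Its step ratio between queen and worker was 1.24 on the TMM scale, against 1.51 on TPM.

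SIFR, the receptor of the neuropeptide SIFamide, which acts in feeding and courtship circuits of Drosophila, varied little between replicates. It had 95.9 and 94.1 TPM in queens, 52.1 and 54.4 TPM in workers and 32.3 and 32.0 TPM in drones. Its transcript is 12285 bases long with 4 exons at chr12:705846-781537, and it held all counts of the gene's 2 targets. Both steps were moderate, 1.78 and 1.66 by the means, and on the TMM scale the step ratios were 1.55 for queen over worker and 1.27 for worker over drone.

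The serotonin receptor gene 5-HT1 entered through a minor transcript only. Target 23764, of 1209 bases and 6 exons, had 11.8 and 25.8 TPM in queens, 0 and 4.04 TPM in workers and 0 in both drone libraries. Queen replicates differed by a factor of 2.18, the widest gap between queen libraries among the members, and a worker library at 0 met the rule only because the drone libraries were at 0 too. It held between 2.15% and 4.71% of the gene's counts in queens. The 6 targets of the gene together had 158 and 165 TPM in queens, 95.9 and 107 TPM in workers and 41.1 and 40.7 TPM in drones, so the whole gene kept the order.

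Cholinergic genes contributed the member with the highest level among the named ones. AChE-2 encodes an acetylcholinesterase, the enzyme that breaks down acetylcholine at the synapse. It had 486 and 470.5 TPM in queens, 220 and 228 TPM in workers and 98.8 and 95.2 TPM in drones. The means were 478 ± 10.8, 224 ± 5.43 and 97.0 ± 2.58 TPM in queens, workers and drones (SD, n = 2 each), with steps of 2.13 and 2.31. Both step ratios stayed above 1.5 on the TMM scale, at 1.85 and 1.75. The gene has a single target of 12849 bases and 11 exons at chr8:7426943-7561836.

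nAChRa6 encodes a subunit of the nicotinic acetylcholine receptor, the channel through which acetylcholine excites insect neurons. Its member, target 4012, is one of 7 and had 10.8 and 10.2 TPM in queens, 5.40 and 3.33 TPM in workers and 1.98 and 2.17 TPM in drones. Another target, 4011, has the same ends, length and number of exons and differs from it by a single stretch of 87 bases, at chr2:3781270-3781356 in the member and at chr2:3759022-3759108 in the other. That target did not follow the order and had 3.43 and 1.77 TPM in queens, 5.23 and 0.000002 TPM in workers and 6.38 and 6.80 TPM in drones, its highest values. The gene as a whole was at 66.7 and 66.2 TPM in queens, 53.0 and 56.8 TPM in workers and 14.8 and 13.9 TPM in drones, a small first step and a large second one. On the TMM scale the gene's log2 differences were 0.12 for queen over worker and 1.75 for worker over drone. The step ratios of target 4012 were 1.66 and 1.27 on that scale, the second under the limit of 1.5.

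Excitability and cyclic AMP signalling gave 2 members. Ac3 encodes an adenylate cyclase, the enzyme that makes cyclic AMP from ATP. Target 20994 had 192 and 179 TPM in queens, 85.0 and 92.3 TPM in workers and 50.2 and 47.1 TPM in drones, and it held between 61.7% and 75.9% of the gene's counts in every library. Amih encodes the honey bee hyperpolarisation-activated channel, which carries the Ih current and is opened further by cyclic AMP. Its member, target 14450, is 1 of 14 targets, with 54.1 and 51.8 TPM in queens, 28.8 and 30.1 TPM in workers and 14.5 and 9.68 TPM in drones. The summed targets of Amih were at 352 and 349 TPM in queens, 179 and 194 TPM in workers and 115 and 104 TPM in drones, in the same order. On the TMM scale Amih kept both steps, with step ratios of 1.52 and 1.57, and Ac3 kept the first at 1.73 but not the second at 1.33.

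CPR22 belongs to the cuticular proteins with a Rebers-Riddiford chitin-binding motif. It had 304 and 294 TPM in queens, 84.8 and 136 TPM in workers and 46.5 and 55.6 TPM in drones. The worker libraries differed from each other more than those of the other phenotypes, with a mean of 110 ± 36.2 TPM (SD, n = 2). It is a short transcript of 496 bases at chr2:2974464-2977178. Its step ratio between queen and worker was 1.658 on the TMM scale, against 2.163 on TPM. Between worker and drone it was 1.401 on the TMM scale, under the limit of 1.5, against 1.526 on TPM.

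**Figure D4:**
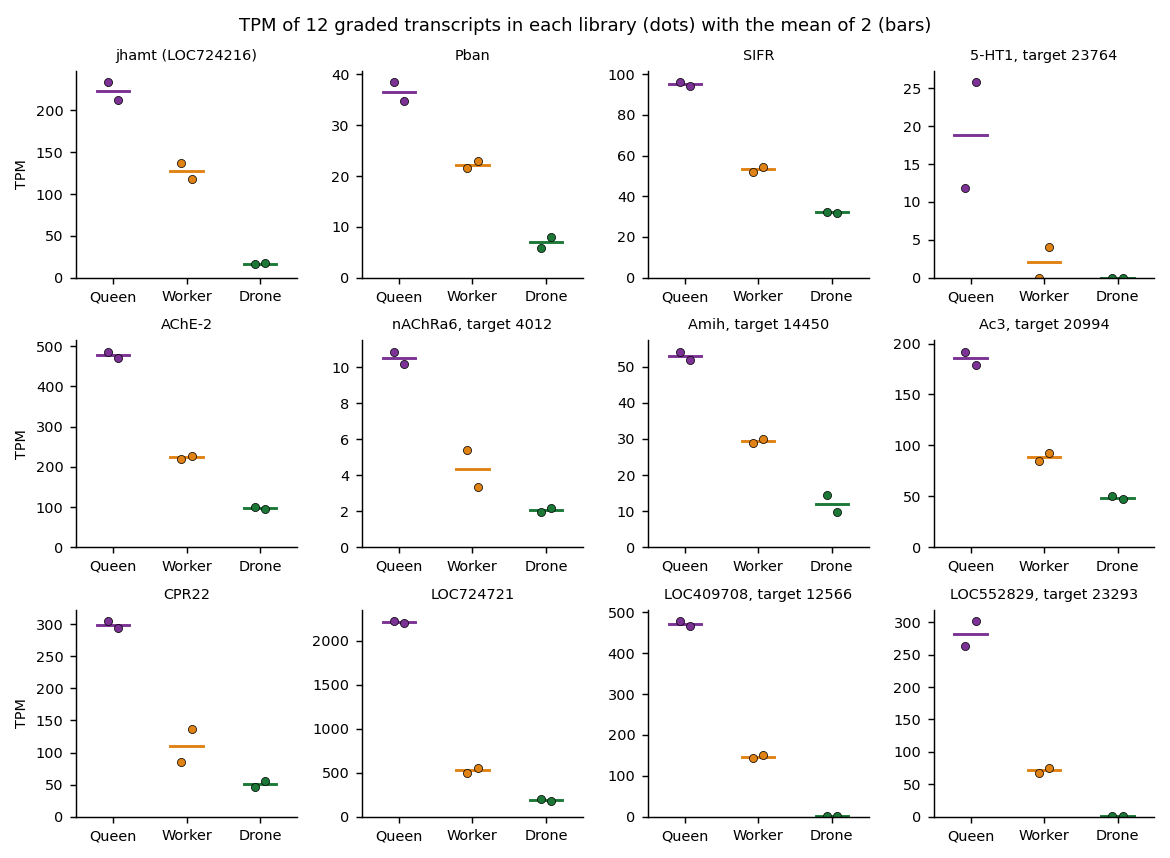
TPM (vertical axes, each from 0) of 12 graded transcripts in every library (dots) and the mean of 2 libraries (bars) for queens, workers and drones. In all panels but that of 5-HT1, where worker replicate 1 and both drone libraries are at 0, the phenotypes do not overlap, as the rule requires.

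The most abundant members have no name in the gene table. LOC724721, of 945 bases and 6 exons at chr1:6488732-6491733, was the highest, with 2217 and 2202 TPM in queens, 502 and 550 TPM in workers and 197 and 174 TPM in drones. Its queens exceeded workers 4.20-fold, and both step ratios stayed above 1.5 on the TMM scale, at 3.36 and 2.03. LOC411083 target 10039 came second with means of 1384, 702 and 437 TPM in queens, workers and drones, above LOC724721 in workers and drones, and its values by library are given with its other transcripts further on. LOC408547 came next with 1072 and 1105 TPM in queens, 566 and 584 TPM in workers and 306 and 327 TPM in drones. LOC726981 had 827 and 803 TPM in queens, 248 and 249 TPM in workers and 123 and 134 TPM in drones. LOC726981 kept both steps on the TMM scale, at 2.70 and 1.593, while LOC411083 and LOC408547 kept the first, at 1.71 and 1.68, and not the second, at 1.28 and 1.435.

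A pair of abundant members dropped mostly between queen and worker. LOC551369 had 905 and 875 TPM in queens, 149 and 176 TPM in workers and 90.2 and 98.2 TPM in drones, a ratio of means of 5.48 for queen over worker and 1.72 for worker over drone, and its second step ratio was 1.27 on the TMM scale. LOC408972 had 615 and 657 TPM in queens, 120 and 134 TPM in workers and 55.8 and 53.9 TPM in drones, and kept both steps on the TMM scale, at 4.05 and 1.72. Both are short genes with a single target, of 1982 bases with 2 exons and of 809 bases with 4 exons. Other abundant members were LOC100577273 with means of 385, 187 and 105 TPM in queens, workers and drones, the larger target of LOC102654970 with 311, 169 and 95.4 TPM, and LOC410933, on the minus strand, with 301, 153 and 76.0 TPM. These 3 kept the first step on the TMM scale, with second step ratios of 1.36, 1.28 and 1.396.

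Some members were nearly confined to the female castes. LOC409708 target 12566 had 478 and 466 TPM in queens and 143 and 151 TPM in workers, and only 2.61 and 2.33 TPM in drones. LOC552829 target 23293 had 263 and 301 TPM in queens, 67.9 and 74.8 TPM in workers and 0.446 and 0.581 TPM in drones, the largest ratio of queens to drones with a drone value in both libraries, 549-fold by the means. LOC102654257 had 92.5 and 98.1 TPM in queens, 27.9 and 19.9 TPM in workers and 1.18 and 1.27 TPM in drones, and is the only target of its gene, at chr1:27581040-27585099. All 3 kept both steps on the TMM scale.

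For the members with least signal the drone value set no fold. LOC725051 target 21598 had 19.2 and 19.7 TPM in queens, 1.55 and 4.59 TPM in workers and 0 in both drone libraries, where a count of 0 allows up to 3 counts. It held 7.81% and 8.06% of the gene's counts in queens. The gene's 2 targets summed to 239 and 238 TPM in queens, 11.6 and 11.8 TPM in workers and 2.34 and 2.20 TPM in drones. That sum did not meet the rule. LOC727254 target 25671 had 20.2 and 16.6 TPM in queens and 5.12 TPM in worker replicate 2, with 7.59e-05 TPM in worker replicate 1, 1.75e-05 TPM in drone replicate 1 and 0 in drone replicate 2. In all, 7 members were at 0 in at least 1 drone library, 2 of them in both, and 3 had under 20 estimated counts in a worker library.

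Most member genes have several annotated transcripts, and the graded one was often a part of the gene's output. Of the 100 genes 61 have more than 1 target, and in these the members made up a median of 44.3% of the gene's estimated counts in queens, 36.2% in workers and 29.0% in drones. The share was lower in drones than in queens in 47 of the 61, a direction that the choice of members for low drone values favours. Only 28 of the 73 members in such genes were the leading target of their gene. Kallisto divides reads that fit several transcripts by a statistical model, so these shares are estimates.

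Most of the genes with several transcripts kept the order when these were summed. For the 39 genes with a single target the sum is the member itself, so only the 61 genes with several targets could differ. Of these, 56 had queen above worker above drone without overlap and 26 met the full rule on their sums, which contain the selected target. With the 39 the numbers were 95 and 65 of 100. Of the 4419 gene sums with at least 10 TPM in both queen libraries 29.0% had the order, a share from which nothing is read about the members, since the rule used the same values. The 5 genes whose sums lost the order were LOC408315, LOC408343, LOC410211, LOC413372 and LOC551259. Conversely, 18 further genes met the rule on their sums without any graded target.

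In LOC410211 transcripts ran in opposite directions. Its member, target 18946, starts within the gene at position 9225682 of chromosome 10 with 551 bases that target 18939 lacks, and had 152 and 149 TPM in queens, 29.3 and 35.3 TPM in workers and 17.4 and 17.5 TPM in drones. Target 18939 starts at 9203167 and ran the other way, with 22.8 and 23.6 TPM in queens, 77.2 and 88.6 TPM in workers and 190 and 182 TPM in drones. The member thus held 49.5% of the gene's counts in each queen library and 4.09% and 4.34% in the drone libraries, and target 18939 held 9.30% and 9.88% in queens and 56.0% and 56.6% in drones. The gene sum was 297 and 290 TPM in queens, 171 and 196 TPM in workers and 367 and 349 TPM in drones, highest in drones.

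In LOC411083 transcripts that ran in opposite directions differed by a single stretch. Its member, target 10039, and target 10036 both span chr5:6883515-7002055 with 10 exons and 7760 bases, and differ only in 95 bases, at 6993543 to 6993637 in the member and at 6987018 to 6987112 in the other. The member had 1296 and 1472 TPM in queens, 700 and 704 TPM in workers and 430 and 445 TPM in drones. The other had 41.1 and 49.4 TPM in queens, 130 and 139 TPM in workers and 282 and 311 TPM in drones, the reverse order. The transcript that led this gene, target 10040, had 3743 and 3529 TPM in queens, 2202 and 2824 TPM in workers and 1935 and 1661 TPM in drones. LOC410211 and LOC411083 were the 2 genes that also held a transcript meeting the rule in the reverse order.

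In LOC409708 the transcripts differed in their first exon. The member begins with 154 bases at chr6:15032441-15032594 that targets 12564, 12565 and 12568 lack. It held 83.8% and 82.6% of the gene's counts in queens, 50.6% and 51.0% in workers and 2.87% and 2.61% in drones. Target 12564, which starts upstream at 15027175, was at 40.5 and 43.4 TPM in queens, 43.1 and 54.1 TPM in workers and 29.8 and 32.9 TPM in drones, a far narrower range than that of the member. Target 12567, whose bases all lie within the member's exons, was highest in workers, with 13.5 and 5.23 TPM in queens, 57.2 and 65.2 TPM in workers and 42.1 and 25.7 TPM in drones.

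LOC552829 was close to absent from drones as a whole gene. Its 2 targets share 1334 bases and differ by 34, and summed to 314 and 340 TPM in queens, 193 and 194 TPM in workers and 0.446 and 0.581 TPM in drones. The longer target was higher in workers, with 51.6 and 38.9 TPM in queens, 125 and 119 TPM in workers and 0 in both drone libraries.

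**Figure D5:**
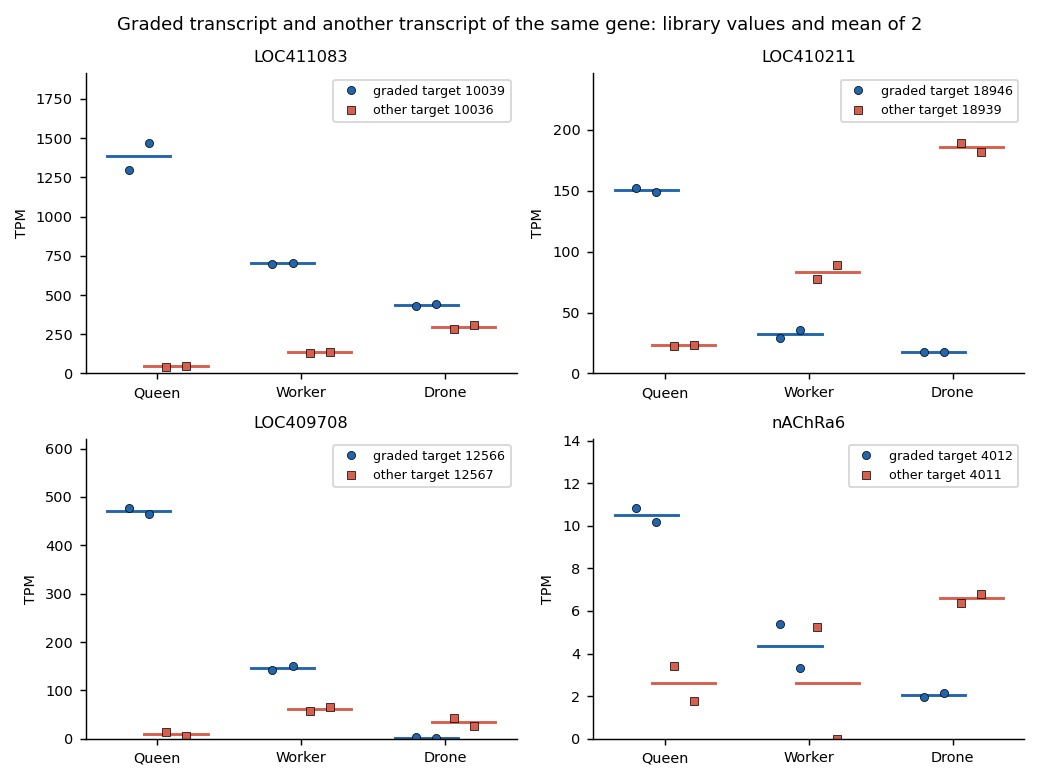
TPM (vertical axes, each from 0) of a graded target (blue circles) and another target of the same gene (red squares) in each library, with the mean of 2 libraries as bars, for queens, workers and drones. The other target was picked as the one lowest in queens relative to its higher mean in workers or drones, above a minimum level. That minimum was set lower for nAChRa6, whose other target is at a low level. The direction of the other target is thus chosen: in LOC411083, LOC410211 and nAChRa6 it is highest in drones, and in LOC409708 in workers.

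LOC551259 was the longest member and lost the order as a gene. Target 13811, of 76350 bases and 134 exons, had 17.2 and 14.4 TPM in queens, 5.29 and 5.62 TPM in workers and 1.295 and 1.23 TPM in drones. A shorter target, 13830, with 107 exons, was nearly restricted to drones, at 0.0664 and 0.223 TPM in queens, 0.236 and 0.150 TPM in workers and 26.7 and 23.0 TPM in drones. The gene's 30 targets summed to 62.5 and 57.3 TPM in queens, 31.9 and 34.4 TPM in workers and 66.8 and 65.3 TPM in drones. In LOC413372 the member, target 5849, had 73.6 and 95.2 TPM in queens, 8.30 and 20.5 TPM in workers and 3.62 and 4.71 TPM in drones, while the sum of its 9 targets was highest in workers, with 543 and 548 TPM in queens, 606 and 613 TPM in workers and 409 and 419 TPM in drones.

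In 8 genes more than 1 transcript was graded, 20 targets in all, which share exons and are not independent of each other. LOC410353 on chromosome 12 had 5 of its 21 targets in the group, starting at 5 positions between 46230 and 501891 and ending together at 576852. The highest of them, target 22101, had 62.9 and 61.2 TPM in queens, 35.1 and 39.0 TPM in workers and 9.09 and 8.20 TPM in drones, and the gene summed to 256 and 243 TPM in queens, 131 and 139 TPM in workers and 31.5 and 29.0 TPM in drones. All 3 targets of LOC409805 were members, summing to 541 and 483 TPM in queens, 113 and 104 TPM in workers and 31.7 and 34.1 TPM in drones. LOC409057 had 2 of 5, with target 18405 at 77.0 and 74.3 TPM in queens, 45.5 and 34.4 TPM in workers and 1.24 and 0 TPM in drones. LOC102654970, LOC410756, LOC725241, LOC410423 and LOC100577139 had 2 each.

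The other transcripts of member genes went along only in part. Of 355 such targets 118, in 48 genes, had at least 10 TPM in both queen libraries, and 56 of these (47.5%) had queen above worker above drone without overlap, beside 23.0% of all targets at that level. The drone mean was above the queen mean in 10. Since these transcripts share reads with the members, this share is no independent measure.

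The members were long and spread over large genes. Their median length was 3424 bases, against 2234.5 for all targets at 10 TPM in both queen libraries, with a median of 8 exons against 7. Member genes spanned a median of 18.8 kb, against 3.85 kb for the 4232 genes with such a target. A single target was annotated for 39% of member genes, against 51.5%. On the plus strand alone, the median length was 3618 bases against 2287. A gene entered when any of its targets met the rule, so genes with more targets had more chances to enter. How far this shaped these differences was not tested.

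The genes were scattered over all 16 chromosomes, and their share ranged from 2 of 256 eligible genes on chromosome 4 (0.781%) to 8 of 129 on chromosome 13 (6.20%). There were 5 pairs of member genes within 10 kb of each other, a count for which no share over all eligible genes was taken. LOC100577273 and LOC102654970 lie 748 bases apart on the same strand of chromosome 1, LOC102656027 and LOC406073 lie 124 bases apart on the same strand of chromosome 5, and the other 3 pairs lie on opposite strands. LOC102656027 had 78.2 and 69.1 TPM in queens, 37.8 and 35.1 TPM in workers and 18.6 and 21.6 TPM in drones. The member of LOC406073 had 68.8 and 73.1 TPM in queens, 43.8 and 41.0 TPM in workers and 23.9 and 23.4 TPM in drones. The rule requires this order of both, so their likeness is no result about neighbours.

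Noncoding members came mostly from the minus strand. Of the 7 long noncoding RNAs (lncRNA) in the group 5 were annotated on the minus strand, where lncRNAs were 18.2% of the targets at 10 TPM in both queen libraries, against 1.76% on the plus strand. On the plus strand they were 2 of 101 members (1.98%), LOC102656010 and LOC102656275. LOC102656275, with 7 exons, had 15.9 and 18.3 TPM in queens, 8.43 and 7.12 TPM in workers and 1.295 and 1.42 TPM in drones. The minus-strand lncRNA LOC107964990 lies within LOC409805 and shares 183 of its 1156 exon bases with it. It had 15.8 and 19.0 TPM in queens, 6.87 and 5.32 TPM in workers and 2.54 and 2.80 TPM in drones. The rule requires this order of it and of the members in LOC409805 alike.

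Other genes of the pathways above were followed in lists, without the members and on the plus strand only. Genes were tested with the quasi-likelihood F-test of edgeR at a Benjamini-Hochberg FDR below 0.05. Of the 5518 plus-strand genes tested it called 30.4% for queen over worker (15.4% up and 15.0% down in queens), 39.5% for worker over drone (21.9% up and 17.6% down in workers) and 42.3% for queen over drone (22.6% up and 19.8% down in queens). Over all 9682 genes of both strands the shares were 22.3%, 28.6% and 30.8%. In the ecdysone and juvenile hormone list 2 such genes passed the filter on low counts besides jhamt. Ecr, itself left out of the group, had 360 and 341 TPM in queens, 148 and 168 TPM in workers and 90.9 and 73.2 TPM in drones. One of its targets met the ratios and was left out by name only, so these values are a description with no test. Jhe, the esterase that degrades juvenile hormone, did not follow jhamt, with 50.3 and 51.8 TPM in queens, 16.0 and 18.5 TPM in workers and 62.0 TPM in both drone libraries. It was lower in workers than in drones, with a log2 difference of -2.09 ± 0.11 (edgeR FDR 3.93e-07).

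Neuronal genes were mixed. Of 6 neuron list genes 3 were higher and 1 lower in queens than in workers, and 3 were higher and 3 lower in workers than in drones. With the minus strand included, edgeR called 6 of 12 between queen and worker, and 3, 2, 3 and 3 without queen replicate 1, queen replicate 2, worker replicate 1 and worker replicate 2. The active zone gene brp and the receptor subunit nAChRa7 went the way of the members at both steps. The subunits nAChRa1 and nAChRa8 were also called at both steps but did not follow the order. nAChRa1 was higher in queens than in workers and lower in workers than in drones, with log2 differences of 0.93 and -0.43. nAChRa8 was lower in queens than in workers and higher in workers than in drones, with -0.28 and 0.35. nAChRa7 had 76.3 and 76.2 TPM in queens, 31.2 and 32.5 TPM in workers and 19.5 and 18.9 TPM in drones, with log2 differences of 1.20 ± 0.07 (SE, FDR 1.93e-06) and 0.46 ± 0.08 (FDR 0.00131). nAChRa3 and nAChRa4, in contrast, were lower in workers than in drones, with log2 differences of -0.44 ± 0.07 and -0.74 ± 0.09 (edgeR FDR 0.000808 and 0.000196).

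The cuticle list ran against CPR22. By edgeR's test 4 of its 5 genes were lower in queens than in workers and 5 of 5 lower in workers than in drones. Apd-1, an apidermin of the cuticle, had 1153 and 1206 TPM in queens, 2899 and 3393 TPM in workers and 5279 and 5038 TPM in drones, with log2 differences of -1.59 ± 0.10 (FDR 2.59e-06) and -0.93 ± 0.10 (FDR 7.25e-05).

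Markers of other tissues moved with the phenotypes as well, and their part in the graded group was not tested. Of the muscle list, targets of troponin genes met the ratios and were left out by name only, so their levels are given with no test. TpnT had 689 and 638 TPM in queens, 79.8 and 113 TPM in workers and 34.9 and 27.9 TPM in drones. Only 7 of the 33 symbols of that list matched a gene, all of them troponin genes, so no other muscle gene was read. The 6 tested ones, both strands included, summed to 1620 and 1604 TPM in queens. They summed to 240 and 293 TPM in workers and 148 and 135 TPM in drones. This order is not set beside that of the members, since the rule had read values of these genes. Hypopharyngeal gland genes went another way, with 10 of 12 lower in queens than in workers and 10 of 12 higher in workers than in drones. They summed to 105 and 99.4 TPM in queens, 23834 and 24178 TPM in workers and 59.8 and 64.5 TPM in drones. Of the 2 plus-strand photoreceptor genes, both opsins, 2 were lower in queens than in workers by edgeR's test, and 1 was higher and 1 lower in workers than in drones. Lop1 had 565 and 604 TPM in queens, 4363 and 4220 TPM in workers and 1057 and 1175 TPM in drones, and Blop had 12.3 and 12.9 TPM in queens, 171 and 169 TPM in workers and 841 and 914 TPM in drones. Of 4 haemocyte and immune genes on the plus strand 2 were lower in queens than in workers and 2 higher in workers than in drones. The fat body list had 1 plus-strand gene, Tsf1, which was lower in workers than in drones, and the glia list had Gat-a, a transporter of the transmitter GABA, higher in queens than in workers and lower in workers than in drones by the same test. The synaptic release list had brp alone on that strand, already given among the neuronal genes.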

How the data were processed

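Poly(A) RNA of central brains from newly-eclosed queens, workers and drones, 2 libraries per phenotype, was sequenced in pairs with a strand-marking kit. The deposited estimated counts and TPM per target (transcript) were made by the authors with Kallisto, run with its strand setting on an Ensembl Metazoa transcript index of Amel_HAv3.1; its version is not given in the sources used here. A deposited table of exon coordinates, with lengths, gave 28381 targets a position. By span, 28200 were paired with 12279 of the 12398 RefSeq genes of Amel_HAv3.1, which the gene table of that build names. The 209 targets not paired held 7.27% to 10.4% of the estimated counts.

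Ratios of members were taken on TPM as deposited, with no pseudocount. For tests, the estimated counts of a gene's targets were added up and then rounded to integers. Genes needed 5 or more counts in 3 or more libraries, and the quasi-likelihood test of edgeR 4.0.16 (R 4.3.3, TMM, all 6 libraries, Benjamini-Hochberg adjustment) gave the calls for genes outside the group, after the code had been tested on simulated data. DESeq2 1.42.0 served as an alternative. Python 3.11.15, pandas 2.3.3 and matplotlib 3.10.9 did the rest. The 2 libraries of a phenotype were biological replicate pools of brains from offspring of 1 mother queen, so p-values measure the spread between such pools and not between colonies. Low values rest on few reads, and a count of 0 allows up to 3 counts; intervals were not drawn. Minus-strand targets were set apart throughout the gene lists.

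The members and the lists (muscle, ecdysone and juvenile hormone, fat body, cuticle, photoreceptor, hypopharyngeal gland, haemocyte and immune, neuron, glia, synaptic release, and trachea and basement membrane, which matched 0 genes) were chosen with earlier results of these data known. Named members were those with a symbol and the 12 highest in mean TPM. The 6 with the largest ratio of the lower queen to the higher drone value were named too. So were the 3 nearest each limit on either side and those of genes with at least 2 members. List genes were named from those that passed at both steps, and not all of these were named. Other transcripts of member genes, the neighbouring and noncoding members, nAChRa3, nAChRa4, Tsf1, Gat-a and the genes whose sums lost the order were chosen after their values were seen. Sequences were not used here.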

Additional observations from a re-analysis of the deposited data

How the results depend on the processing

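The number of members depended most on the ratio and on the scale. A ratio of 1.3 gave 276 and a ratio of 2 gave 24, while the ratios on CPM on the TMM scale gave 41, 40 of them members, and DESeq2's size factors also 41, 40 of them members. A minimum of 5 or 20 TPM gave 141 or 79, no upper limit 134, and gene sums 83. Leaving out 1 library gave 129 to 175 (173 without worker replicate 1 and 175 without worker replicate 2), with 103 to 112 of the members kept. The plus strand alone, an alternative chosen after seeing the data, held 101.

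Testing single targets called 1019 between queen and worker, 1789 between worker and drone and 1906 between queen and drone, against 2159, 2770 and 2978 genes. Without 1 library, with the lone library of a phenotype assumed to vary like the others, edgeR called 1283 to 2528, 1899 to 2944 and 1991 to 2944 genes for these comparisons. For queen and worker it called 1339 without queen replicate 1, 1283 without queen replicate 2 and 1312 without worker replicate 1. All other settings of these 3 comparisons, the plus strand included, stayed within 1.5 times. The counts for the muscle, ecdysone and juvenile hormone, fat body, cuticle, neuron and glia lists were varied with both strands included. They stayed within 1.5 times in 116 and moved further in 28 of the alternatives. The other lists, and the counts on the plus strand alone, were not varied.

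With the replicate block 1690, 2268 and 2460 genes were called. The numbers are not known to pair the libraries, since the deviations of equally numbered libraries correlated at -0.019 (worker and queen), -0.086 (worker and drone) and -0.354 (queen and drone).

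Depth limited the lowest members: 8 had fewer than 3 estimated counts in a drone library.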
